A study of Mus musculus with 6 samples.

Results

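The 16 probes described here had their highest signal in EPC, a lower signal in EPC_acLDL and the lowest in EPC_Late, which are 3 cell lines grown from the lungs of athymic nude mice. They were selected on these same measured values. Each array's intensities were divided by that array's median, which gives the relative intensity used below. A probe was taken when both EPC_acLDL values lay under both EPC values, both EPC_Late values lay under both EPC_acLDL values, and the EPC mean was at least 1.5 times the EPC_Late mean. It also needed a detection p-value (the fraction of negative controls that were as bright or brighter) below 0.01 on the 4 arrays of EPC and EPC_acLDL and below 0.05 on both EPC_Late arrays. Of 25697 probes for 17916 gene names, 976 probes for 882 genes met the detection criteria, 28 of these had the stepwise order at any fold, and 16 probes for 16 genes met every criterion (1.64% of the 976). Because the rule used all 3 comparisons between the lines, the differences of these probes are given as a description, with no test.

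EPC was the primary line at passage 3 to 6, grown from lung cells that had been sorted by flow cytometry for endothelial and stem cell surface markers and for the absence of the blood cell marker CD45. EPC_acLDL, also at passage 3 to 6, held the cells that took up fluorescent acetylated low-density lipoprotein, which were sorted and replated. EPC_Late was at passage 16 to 20 by the labels, a range that the culture methods extend upwards, and, per the methods, arose from EPC_acLDL on continued culture. All 3 lines were grown in a mouse endothelial medium with fetal bovine serum, and total RNA of each was hybridized to 2 arrays of 1 MouseRef-8 v2.0 chip. The methods speak both of separate, independent experiments and of duplicate runs, and the design text of duplicates only, so that it is not settled which of these the 2 arrays of a line are, and their spread may be technical. Sorting and replating cannot be told apart in the step from EPC to EPC_acLDL, and no line of high passage that had not been sorted was analysed here. All directions between lines follow the sample labels of the deposited columns. Of the genes named below, the study lists Sox2 and Igsf4a (Cadm1) in the opposite direction between EPC and the other lines, and Srrt (Ars2) and Srsf1 (Sfrs1) in the opposite direction between EPC_Late and both other lines, whereas it lists Serbp1 in the direction found here. Sox2 had a relative intensity of 3.53 and 3.29 in EPC, 13.4 and 11.3 in EPC_acLDL, and 16.8 and 15.2 in EPC_Late. The study gives Sox2 folds of about these sizes against EPC, as falls in place of rises. The cause of the turned signs was not tested. If the columns were labelled otherwise than the samples were, the directions below would be affected.

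The genes of these probes belong to several systems with known roles in cells of the vessel wall. Follistatin, ephrins and plexins act at or outside the cell surface, where they bind growth factors of the activin family or carry signals of contact and guidance between cells. Actinins and the Arp2/3 complex cross-link and branch actin filaments, on which cell shape, adhesion and migration depend. Other genes encode proteins that bind, splice or degrade RNA, charge transfer RNA, acidify vesicles or package DNA.

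The array medians lay between 304.6 and 358.7 intensity units, and 2177 to 2365 probes on each array passed detection at 0.05. Of 18 endothelial marker genes on 27 probes, only Kdr, the receptor by which the cells had been sorted, was above background on all 6 arrays. The others, Pecam1, Cdh5, Tek and Vwf among them, were not well above background in any line. The summed relative intensity of the endothelial list was 26.5 to 27.2 on all arrays. With 1 of its 27 probes above background, this sum is mostly background and cannot show whether endothelial content differed. Blood cell markers summed to 23.4 to 24.4, with 1 of 23 probes (Csf1r) above background on all arrays and Ptprc not above it. Fibroblast and mesenchymal markers (3 of 18 probes above background on all arrays, Col1a2, Sparc and Twist1) summed to 22.3 to 23.7 in EPC, 26.1 to 28.0 in EPC_acLDL and 34.5 to 36.6 in EPC_Late. Smooth muscle and pericyte markers (Acta2, Cspg4 and Des of 11 probes) summed to 12.6 to 13.9 throughout, with Myh11 and Tagln not above background. Epithelial markers (Cadm1, Cdh1 and Cldn7 of 11 probes) summed to 14.0 to 14.5 in EPC, 26.5 to 31.5 in EPC_acLDL and 27.4 to 29.1 in EPC_Late. Stem cell markers (Pou5f1 and Sox2 of 11 probes) summed to 13.8 to 14.4, 22.3 to 24.7 and 26.2 to 27.6 in the same order. The differences between sums were carried by few probes. Sparc was higher (log2 difference of EPC_Late from EPC 1.95, limma adjusted p = 0.00022, on neqc signal), as were Col1a2 (0.43, adjusted p = 0.047), Cadm1 (2.90, adjusted p = 6e-05) and Sox2 (2.67, adjusted p = 6e-05), whereas Twist1 (-0.64, adjusted p = 0.0152) and the blood cell marker Coro1a (-1.29, adjusted p = 0.0147) were lower. The epithelial sums of EPC_acLDL and EPC_Late overlapped. The part of these genes in the result was not tested. In bulk RNA, fewer cells of a type and less RNA per cell cannot be told apart.

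Promoters are shown for 4 members that stand for the patterns described below: Actn1 and Syncrip, which were lower mainly in EPC_Late, and Plxna2 and Hist1h2bf (now H2bc7), which were lower mainly from EPC_acLDL on. The sequences are the 250 bases before the first-listed start of each gene, 5′ to 3′ on the strand of the gene, from RefSeq on GRCm38.p6. Capitals mark the motifs, searched on both strands. The TATA box was searched as TATAAA and the CCAAT box by its own letters. The GC box, to which Sp1 binds, was searched as GGGCGG and the E-box of Myc and Max as CACGTG. The motif of AP-1 was searched as TGANTCA, that of TEAD factors as CATTCC and that of E2F as TTTCGCGC, and the CArG box is that of serum response factor. Neighbouring matches may overlap.
Actn1 (chr12:80260364-80260613, minus strand): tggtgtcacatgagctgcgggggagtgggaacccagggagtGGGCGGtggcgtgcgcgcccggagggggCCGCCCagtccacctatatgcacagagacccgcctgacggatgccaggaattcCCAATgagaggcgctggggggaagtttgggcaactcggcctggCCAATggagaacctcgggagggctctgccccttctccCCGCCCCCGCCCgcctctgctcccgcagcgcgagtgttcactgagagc
Syncrip (chr9:88482398-88482647, minus strand): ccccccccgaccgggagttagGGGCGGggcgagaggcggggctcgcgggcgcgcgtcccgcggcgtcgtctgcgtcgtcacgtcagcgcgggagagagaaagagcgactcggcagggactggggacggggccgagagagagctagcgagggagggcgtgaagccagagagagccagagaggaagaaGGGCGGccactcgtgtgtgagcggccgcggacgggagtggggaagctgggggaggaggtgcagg
Plxna2 (chr1:194619579-194619828, plus strand): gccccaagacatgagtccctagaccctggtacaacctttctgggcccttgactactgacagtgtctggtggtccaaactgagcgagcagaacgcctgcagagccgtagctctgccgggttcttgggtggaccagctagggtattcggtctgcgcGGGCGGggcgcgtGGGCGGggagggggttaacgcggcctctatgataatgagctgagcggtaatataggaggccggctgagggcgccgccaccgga
H2bc7 (chr13:23574208-23574457, minus strand): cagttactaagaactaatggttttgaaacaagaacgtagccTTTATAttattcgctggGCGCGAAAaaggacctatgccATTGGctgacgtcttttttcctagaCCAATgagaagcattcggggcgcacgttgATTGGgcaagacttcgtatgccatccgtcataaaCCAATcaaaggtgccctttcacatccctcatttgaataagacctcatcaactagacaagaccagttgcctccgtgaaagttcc
Promoters of this kind were at hand for 13 of the 16 genes (not for Fst, Enc1 and Map4k4), and 9 of the 13 held at least 1 of the motifs. The GC box was found in 7 of 13 (53.8%), against 61.2% of 686 genes that passed the detection criteria and 32.9% of all 27025 genes with a promoter. The CCAAT box was found in 3 (23.1%), in Actn1, Kars and H2bc7, against 38.8% and 34.5%. H2bc7 alone held the letters of the TATA box (7.69%, against 8.02% and 13%), at -209 from the start and on the other strand. It also alone held the E2F motif (7.69%, against 1.17% and 0.255%), and its window held CCAAT 4 times. Thrap3 alone held the E-box (7.69%, against 9.04% and 6.05%) and the AP-1 motif (7.69%, against 3.79% and 6.87%). No member window held the TEAD motif (9.48% and 12.6% of the other sets) or the CArG box (1.17% and 1.4%). The median GC content was 64.4% in the member windows, 60.0% in those of the genes passing the detection criteria and 52.0% in all, and the median number of CpG was 18, 17 and 6. These matches describe the letters of the windows only.

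Over the 16 probes the EPC mean was 1.59 to 2.59 times the EPC_Late mean (median 1.85). The median share of this log2 difference that lay between EPC and EPC_acLDL was 26.3%, with a range of 6.73 to 81.9%. In 12 probes the larger step lay between EPC_acLDL and EPC_Late, and in Fst, Plxna2, H2bc7 and Ripor1 it lay between EPC and EPC_acLDL. The gap between the 2 nearest arrays of neighbouring lines was set against the largest difference between arrays of 1 line, taken over all 3 lines. That line can be the one outside the step, as EPC was for the second step of Fst and Plxna2. The gap was the larger at both steps in 4 probes, those of Syncrip, Zfc3h1, Kars and Arpc1a. For the step from EPC to EPC_acLDL the gap was smaller than that difference in 11 probes, and for the step from EPC_acLDL to EPC_Late in 4. These splits belong to the relative scale. On neqc signal, which is background-corrected and quantile normalized, the median share before EPC_acLDL was 43.5% (17.8 to 89.3%), and Arpc1a joined the probes with the larger step before EPC_acLDL, which makes 5. Both gaps exceeded the spread within lines there in 5 probes, those of Plxna2, Actn1, Zfc3h1, Efna5 and H2bc7, so that Zfc3h1 alone did so on both scales.

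**Figure D1:**
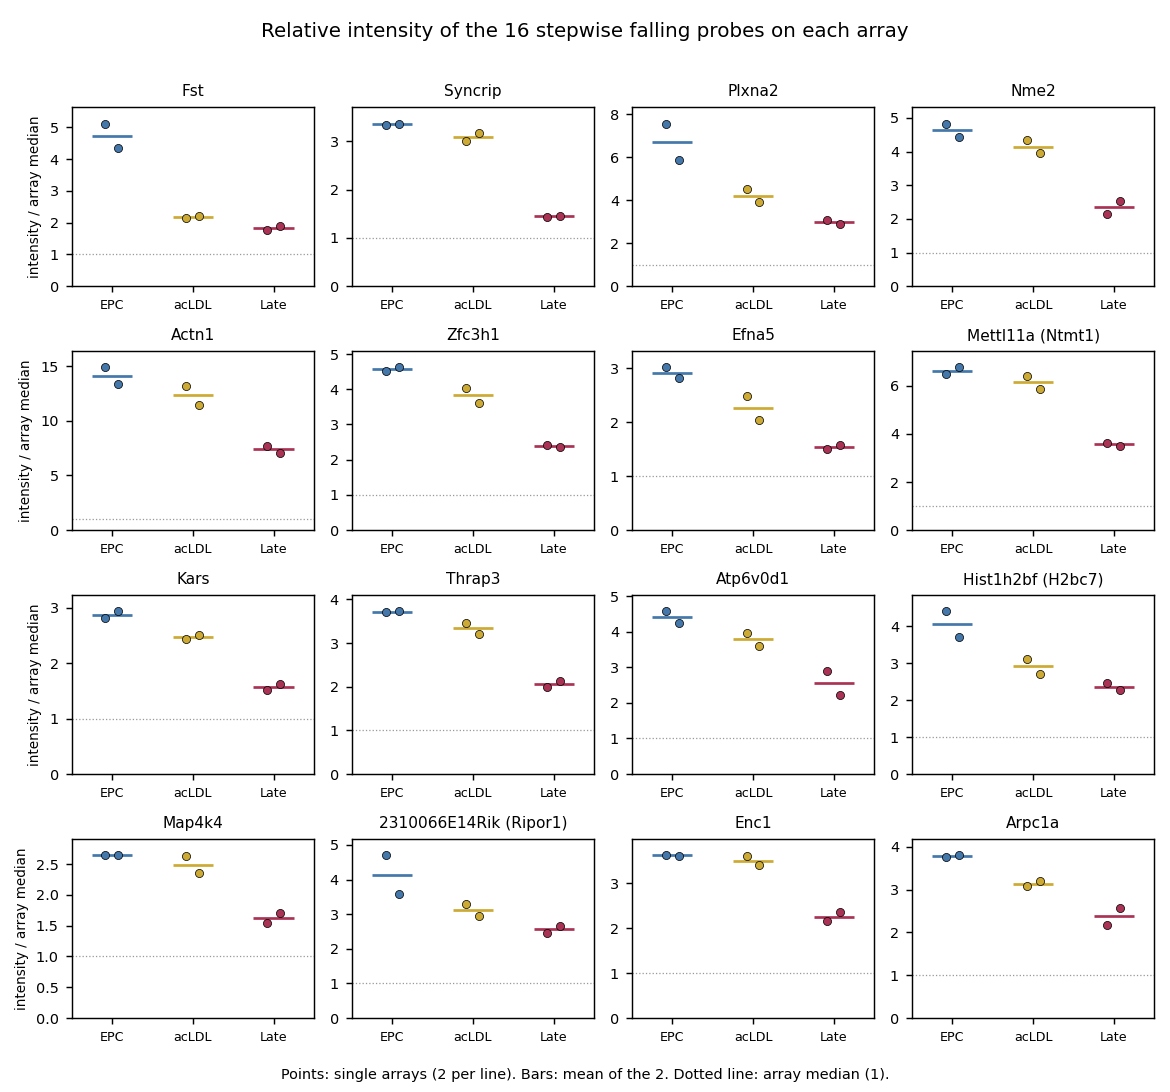
Relative intensity (intensity divided by the array median, linear axis from 0) of the 16 probes in EPC, EPC_acLDL and EPC_Late, with points for single arrays (2 per line), bars for the mean of the 2 and a dotted line at the array median. The points of the 3 lines do not overlap in any panel, as the rule required, and in Enc1 and Map4k4 the nearest EPC and EPC_acLDL points all but touch.

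Among the secreted and surface proteins, Fst, which encodes follistatin, a secreted protein that binds and blocks activins, had the largest fold of all. Its relative intensity was 5.12 and 4.34 in EPC, 2.14 and 2.21 in EPC_acLDL, and 1.77 and 1.89 in EPC_Late. The EPC mean was 2.18 times that of EPC_acLDL, which in turn was 1.19 times that of EPC_Late. Most of the Fst difference thus set EPC apart. Its 2 other lines lay 0.247 apart at their nearest arrays, less than the 0.781 between the 2 EPC arrays, which are outside that step. Within EPC_acLDL and within EPC_Late the arrays lay closer together than this gap. Plxna2 encodes plexin A2, a receptor for semaphorins. It read 7.58 and 5.88 in EPC, 4.51 and 3.93 in EPC_acLDL, and 3.101 and 2.914 in EPC_Late, a fold of 2.24 with 58.1% of the log2 difference before EPC_acLDL. The EPC arrays differed by 1.70, more than the gap to EPC_acLDL of 1.38, whereas on neqc signal the gap (0.94) was the larger and the largest difference within a line was 0.218. Efna5 encodes ephrin A5, a ligand anchored in the membrane that binds Eph receptors on neighbouring cells. It read 3.02 and 2.81, 2.49 and 2.04, and 1.51 and 1.58 in the 3 lines, 1.89-fold in all, with steps of 1.29-fold and 1.47-fold. Its detection p-values in EPC_Late were 0.0226 and 0.00752, so that this line lay close to background. Map4k4, which is neither secreted nor a surface protein, encodes a protein kinase of stress signalling and cell migration. It read 2.643 and 2.644 in EPC, 2.634 and 2.353 in EPC_acLDL, and 1.539 and 1.704 in EPC_Late, with 1.54-fold between the 2 last lines and 1.06-fold before, or 11.9% of the log2 difference before EPC_acLDL, against 29.9% on neqc signal. The nearest arrays of EPC and EPC_acLDL were 0.00832 apart and the 2 EPC_acLDL arrays 0.281. The first step of Map4k4 was thus within the spread of the arrays on the relative scale. On neqc signal its gap of 0.325 was smaller than the largest difference within a line (0.555), but that was between the EPC_Late arrays. The lines of this step read 9.074 and 9.285 (EPC) and 8.749 and 8.721 (EPC_acLDL) there, closer together within each line than the gap.

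Of the cytoskeletal genes, Actn1, which encodes the actin cross-linker alpha-actinin 1, read 14.9 and 13.4 in EPC, 13.2 and 11.4 in EPC_acLDL, and 7.71 and 7.03 in EPC_Late. The fold was 1.15 in the first step and 1.67 in the second, and the gap of 0.138 in the first step was smaller than the 1.81 between the EPC_acLDL arrays. On neqc signal this turned round, with a first gap of 0.392 against at most 0.056 within a line. Arpc1a, a subunit of the Arp2/3 complex that branches actin filaments, was the member nearest the fold threshold (1.59). It read 3.76 and 3.80, 3.08 and 3.20, and 2.18 and 2.56, with both gaps (0.561 and 0.518) above the largest difference within a line (0.382). On neqc signal neither gap was (0.341 and 0, against 0.5). Ripor1 (named 2310066E14Rik on the array) encodes a regulator of the GTPase RhoA. It read 4.70 and 3.59, 3.29 and 2.95, and 2.46 and 2.67, with 59.2% of the log2 difference before EPC_acLDL, and the 2 EPC arrays (1.11 apart) differed more than either gap. On neqc signal the first gap of Ripor1 (0.597) exceeded the spread within lines (0.321) and the second (0.066) did not. Enc1, a kelch protein that associates with actin, had the smallest share before EPC_acLDL (6.73%). It read 3.621 and 3.618 in EPC, 3.612 and 3.399 in EPC_acLDL, and 2.154 and 2.355 in EPC_Late, which sets EPC_Late apart while EPC and EPC_acLDL were 0.00545 apart at their nearest arrays.

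A further 4 genes act on RNA. Syncrip, an RNA-binding protein of the hnRNP family, read 3.33 and 3.37 in EPC, 3.01 and 3.17 in EPC_acLDL, and 1.43 and 1.46 in EPC_Late. Its fold of 2.32 was made up of 1.09 and 2.14, with a first gap (0.167) just above the largest difference within a line (0.154), and below it on neqc signal (0.164 against 0.364). The detection p-values in EPC_Late were 0.0313 and 0.0238, the former the highest of any member. Zfc3h1, a zinc finger protein that helps to target nuclear RNA for decay, read 4.51 and 4.62, 4.03 and 3.62, and 2.43 and 2.36. The 2 steps, 1.19-fold and 1.60-fold, both exceeded the spread within lines, on neqc signal too. Thrap3, which takes part in splicing, read 3.71 and 3.73, 3.46 and 3.21, and 1.99 and 2.14, with most of its 1.80-fold difference in the second step (1.62). Kars, the lysyl-tRNA synthetase, read 2.82 and 2.94, 2.43 and 2.51, and 1.52 and 1.63, 1.83-fold in all, and its gaps of 0.314 and 0.809 were above the largest difference within a line (0.118), but on neqc signal the first was not (0.324 against 0.445).

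The other 4 genes act in metabolism, protein modification, vesicle acidification and chromatin. Nme2, a nucleoside diphosphate kinase, read 4.83 and 4.43 in EPC, 4.34 and 3.95 in EPC_acLDL, and 2.16 and 2.53 in EPC_Late (1.97-fold). Ntmt1 (Mettl11a on the array), a methyltransferase of protein N-termini, read 6.51 and 6.76, 6.42 and 5.85, and 3.64 and 3.50, with 12.6% of the log2 difference before EPC_acLDL. In both, EPC_Late stood apart, and the first step was within the spread of the arrays on the relative scale. On neqc signal this held for Ntmt1 (0.258 against 0.271 between the EPC arrays). For Nme2 the first gap there (0.374) was smaller only than the 0.49 between the EPC_Late arrays. Its EPC arrays read 10.256 and 10.338 and its EPC_acLDL arrays 9.78 and 9.881, closer together within each line than the gap. Atp6v0d1, a subunit of the proton pump that acidifies vesicles, read 4.57 and 4.25, 3.97 and 3.61, and 2.89 and 2.23, a fold of 1.72. H2bc7, a gene of histone H2B, read 4.40 and 3.70, 3.11 and 2.72, and 2.45 and 2.27, with 61.1% of the log2 difference before EPC_acLDL. The coding sequences of the histone H2B genes are nearly alike, and Nme2 closely resembles Nme1, so that these 2 probes may read related transcripts as well.

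The 1.5-fold threshold fell in a gap. Just inside it lay Arpc1a (1.59), Enc1 (1.61), Ripor1 (1.62), Map4k4 (1.63) and H2bc7 (1.71). Just outside it, with the same stepwise order, lay Mcts1 (1.48), Mrps11 (1.44), Nipbl (1.42), Psma7 (1.40) and Ehbp1l1 (1.40), and the last of the 12 excluded probes was that of Ndufs4 (1.05).

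The intensities as deposited hold a background that shrinks ratios of dim probes. After background removal and quantile normalization with neqc of limma, the EPC mean was 1.99 to 5.61 times the EPC_Late mean (median 2.54), and 15 of the 16 probes were at least 2-fold apart. Syncrip then had the largest difference (difference of EPC_Late from EPC in mean log2 signal -2.49), before Fst (-2.19), Efna5 (-1.92), Kars (-1.82) and Plxna2 (-1.52), and Ripor1 had the smallest (-0.995). The stepwise order without overlap held in 14 probes. In Fst the EPC_acLDL arrays read 8.23 and 8.56 and the EPC_Late arrays 7.97 and 8.35 on the log2 scale, and in Arpc1a 9.11 and 9.46 against 8.61 and 9.11, so that these 2 lines overlapped or touched. Over the 976 probes, the median log2 difference on the relative scale was 0.156 for EPC_acLDL from EPC and -0.175 for EPC_Late from EPC_acLDL. On neqc signal the former was -0.00903. As neqc changes both the background and the normalization, the source of this difference was not tested. On the relative scale the 16 probes were thus lower in EPC_acLDL than in EPC while the median probe was higher, and both were lower in EPC_Late than in EPC_acLDL. On the neqc scale the log2 difference of EPC_acLDL from EPC was larger in size, at -0.43 in Actn1, -0.44 in Syncrip, -0.33 in Enc1, -0.44 in Map4k4 and -1.95 in Fst.

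**Figure D2:**
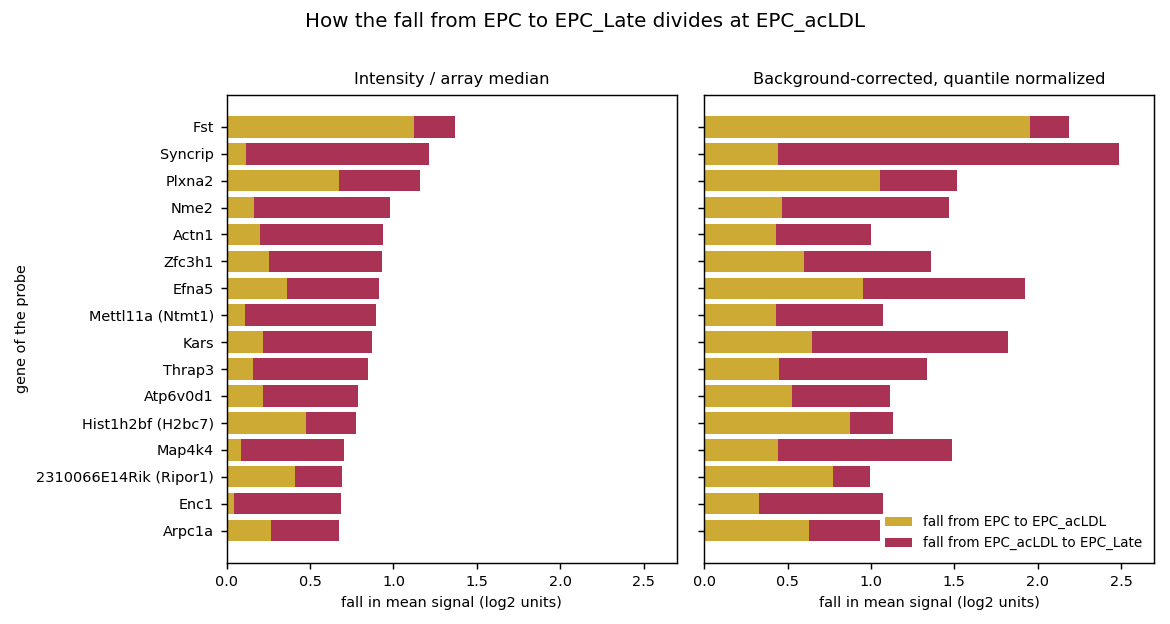
Fall in mean signal (log2 units) from EPC to EPC_acLDL (yellow) and from EPC_acLDL to EPC_Late (red) for each of the 16 probes, on relative intensity (left) and on background-corrected, quantile normalized signal (right). On the left the yellow part is the longer one in Fst, Plxna2, Hist1h2bf and Ripor1, and on the right the bars are longer, up to 2.49 in Syncrip, and the yellow part is the longer one in Arpc1a as well.

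The stepwise order was 1 of 6 possible orders without overlap between the lines. Among the 976 probes, 132 had EPC_acLDL highest and EPC_Late lowest, of which 89 (9.12%) at 1.5-fold or more, 58 were higher in EPC_acLDL than in EPC and highest in EPC_Late, of which 42 (4.3%), and 55 had EPC_acLDL highest and EPC lowest, of which 19 (1.95%). The falling order, with 28 and 16, was less frequent than these 3 in these data on the relative scale, and EPC_acLDL lay lowest in 6 probes with EPC_Late highest and in 4 with EPC highest. The number met by the rule depended on the scale: on neqc signal 89 probes had the same order and fold, 14 of the members among them, and 51 (12 members) when the divisor was the median of the 976 probes. Without EPC_acLDL replicate 1 the rule was met by 50 probes, and without EPC replicate 2 by 42. The same EPC to EPC_Late fold was met by 116 of the 976 probes. In 115 of these EPC_Late lay below EPC_acLDL without overlap, but in 17 only did EPC_acLDL lie below EPC without overlap, and in 68 the EPC_acLDL mean was above the EPC mean. Of the same 116 probes, 16 had both steps without overlap, so that the first step removed nearly all of the others.

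**Figure D3:**
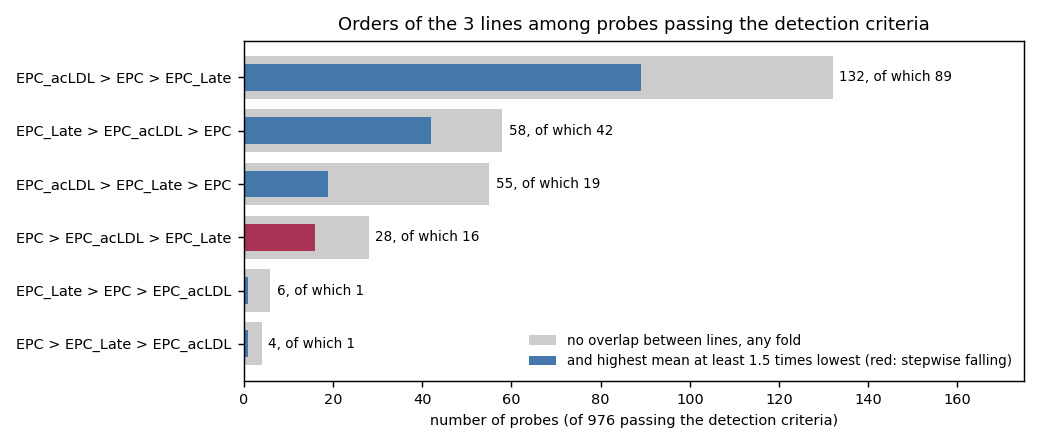
Number of probes (of the 976 that passed the detection criteria) with each order of the 3 lines when no arrays of different lines overlap, at any fold (grey) and with the highest mean at least 1.5 times the lowest (coloured, red for the stepwise falling probes). The order EPC above EPC_acLDL above EPC_Late holds 28 probes, of which 16 pass the fold.

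Of the 16 genes, 5 were read by more than 1 probe. For Syncrip, a brighter second probe (ILMN_2634248) had intensities of 4308.9 and 3728.4 in EPC, 3790.8 and 3320.6 in EPC_acLDL, and 1496.2 and 1489.0 in EPC_Late. On the relative scale this was 2.88-fold between EPC and EPC_Late and 1.12-fold between EPC and EPC_acLDL, whose arrays overlapped. The remaining Syncrip probe (ILMN_2595017) was 1.30-fold higher in EPC than in EPC_Late but higher in EPC_acLDL than in EPC (relative intensity 2.10 and 1.88 against 1.81 and 1.73). The other 2 probes of Arpc1a were 1.51-fold and 1.37-fold higher in EPC than in EPC_Late, with EPC and EPC_acLDL overlapping in both. For Atp6v0d1 and Nme2, 1 other probe each was above background, 1.43-fold higher in EPC than in EPC_Late in both genes, and with the EPC_acLDL mean above the EPC mean (EPC over EPC_acLDL 0.928 and 0.977). On neqc signal this direction turned, with log2 differences of EPC_acLDL from EPC of -0.08 in Atp6v0d1 and -0.28 in Nme2. The remaining 2 probes of Atp6v0d1, 1 of Nme2 and 1 of Efna5 were not well above background on any array. On the relative scale EPC_Late was lowest without overlap in all 6 other probes above background, and in none was EPC_acLDL in the middle without overlap. The neqc signal gave another picture of the first step. There 1 other probe each of Arpc1a (ILMN_1220452), Nme2 (ILMN_3150658) and Syncrip (ILMN_2634248) had the stepwise order without overlap. In the other Arpc1a probe (ILMN_2699700) EPC_acLDL and EPC_Late were no longer apart.

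**Figure D4:**
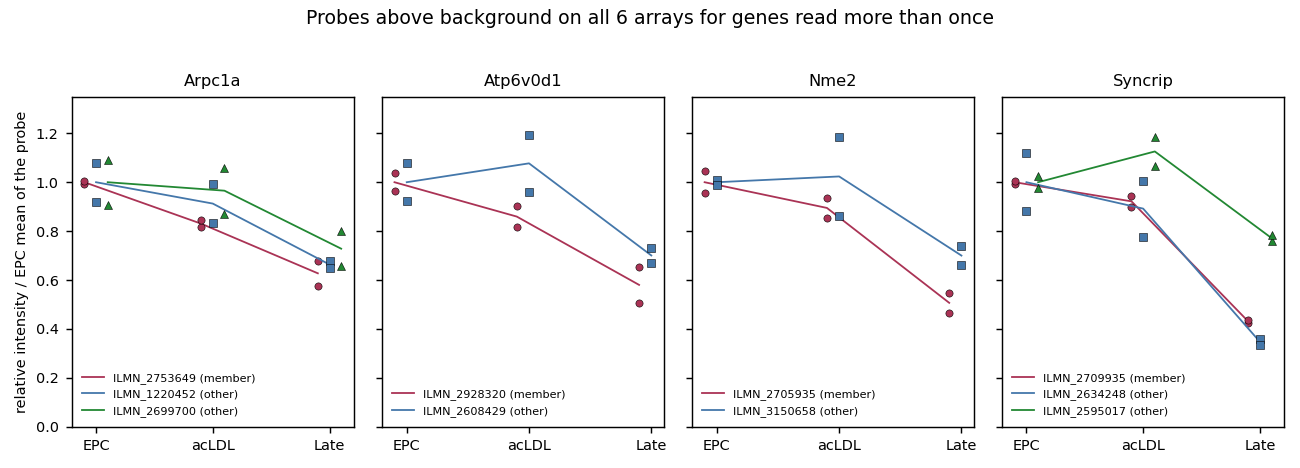
Relative intensity, as a ratio to the EPC mean of the same probe (linear axis from 0), for the member probe (red) and the other probes above background on all 6 arrays (blue, green) of Arpc1a, Atp6v0d1, Nme2 and Syncrip, with points for arrays and lines through the means. On this scale EPC_Late is lowest for every probe and the EPC_acLDL mean lies above that of EPC for 1 other probe each of Atp6v0d1, Nme2 and Syncrip, a direction that turned on neqc signal for Atp6v0d1 and Nme2.

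Of 16 gene lists, 4 held a member, and their other genes were tested with limma on the neqc signal of 2333 probes above background in at least 1 line. Of these probes 1.37% were lower and 1.93% higher in EPC_acLDL than in EPC, 11.5% lower and 9.34% higher in EPC_Late than in EPC_acLDL, and 13% lower and 10.9% higher in EPC_Late than in EPC at an adjusted p below 0.05. The medians over all probes tested were 0.008, 0.003 and 0.006 in these comparisons on the log2 scale, which share arrays with each other. With any array left out, the 77 calls between EPC_acLDL and EPC came down to 9 to 31. The member probes and other probes of their genes are left out of the counts that follow.

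The splicing and RNA-binding list, which holds Syncrip, had 31 other probes for 21 genes. In EPC_Late 21 were lower and 1 higher than in EPC_acLDL (median log2 difference -0.64), and 16 were lower and 1 higher than in EPC (median -0.44), but between EPC_acLDL and EPC none was lower and 2 were higher (median 0.10). The log2 difference of EPC_Late from EPC was -2.30 for Srrt, which links the cap-binding complex to RNA processing (limma adjusted p = 0.000214), -1.43 for the RNA-binding protein Serbp1 (adjusted p = 0.00294), -1.34 for Hnrnpa1 (adjusted p = 0.001) and -1.31 for the splicing factor Srsf1 (adjusted p = 0.000556). The directions of Srrt and Srsf1, which the study lists the other way, follow the labels. Between EPC_acLDL and EPC the log2 differences of these 4 genes were -0.23, -0.21, -0.30 and 0.18 and did not pass the threshold, so that the call lay in the second step, as the larger part of the difference did for Syncrip. The difference between the 2 steps was not tested.

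The contractile list, which holds Actn1, had 13 other probes for 8 genes, of which 3 were lower in EPC_acLDL than in EPC, 5 lower and 1 higher in EPC_Late than in EPC_acLDL, and 6 lower and none higher in EPC_Late than in EPC (median -0.34). Tpm2, a tropomyosin that lies along actin filaments, read 803.0 and 908.5 intensity units in EPC, 434.6 and 541.3 in EPC_acLDL and 525.4 and 540.2 in EPC_Late. It fell by 1.68 from EPC to EPC_Late on the log2 scale (adjusted p = 0.00274), and its EPC_acLDL and EPC_Late arrays overlapped. Mylk, the myosin light chain kinase, fell by 1.15 (adjusted p = 0.00123) on its brighter probe and was lowest in EPC_acLDL. Its dimmer probe is also counted as lower in EPC_acLDL and in EPC_Late than in EPC. That probe was above background on the EPC arrays alone, and so passed the filter only through the line where it was high. Actn4, the close relative of Actn1, fell by 1.15 (adjusted p = 0.001), with -0.34 between EPC_acLDL and EPC (adjusted p = 0.171) and -0.81 between EPC_Late and EPC_acLDL (adjusted p = 0.00447). Actb fell by 0.999 (adjusted p = 0.00415), with EPC_acLDL the brightest line (3996.2 and 4439.2 intensity units, against 3300.6 and 2783.1 in EPC and 1655.7 and 1904.6 in EPC_Late). Of these genes Actn4 had the same order of line means as Actn1.

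The list of actin dynamics and tubulin genes, which holds Arpc1a, had 12 other probes for 10 genes, of which none passed between EPC_acLDL and EPC, 4 were lower and 1 higher in EPC_Late than in EPC_acLDL, and 4 were lower and 2 higher in EPC_Late than in EPC (median -0.18). Tuba1a (-1.72, adjusted p = 0.000865), Tubb4b (-1.65, adjusted p = 0.000533) and 1 probe of Tubb2b (-1.40, adjusted p = 0.000783), all tubulins, and Pfn1, the actin monomer binder profilin (-0.90, adjusted p = 0.0027), were lower in EPC_Late than in EPC. A second probe of Tubb2b went the other way (0.45, adjusted p = 0.0351), and tubulin genes are alike enough that probes may read more than 1 of them.

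The list of activin, BMP and TGF-beta signalling, which holds Fst, had 9 other probes for 8 genes. None was lower in any comparison. Bmpr1a, a BMP receptor, was higher in EPC_Late than in EPC (0.73, adjusted p = 0.0256), where both EPC arrays were not well above background, and Bmp1, a procollagen protease, was higher in EPC_Late than in EPC_acLDL (0.56, adjusted p = 0.0424). Within this list Fst was the only gene above background whose signal was called or selected as lower in EPC_Late. The lists for matrix, nuclear lamina, translation, chaperones, proteasome, glycolysis, oxidative phosphorylation, cell cycle, histones and high mobility group proteins, annexins, lipid uptake and antioxidant enzymes held no member. The histone list named other histone genes and not Hist1h2bf, so that H2bc7 is in no list.

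The 16 genes lay on 11 chromosomes of the RefSeq annotation. Chromosomes 8 (Atp6v0d1, Ripor1 and Kars) and 13 (Enc1, Fst and H2bc7) held 3 each, and Atp6v0d1 and Ripor1 were separated by 3 annotated genes, 1 of them protein-coding.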

How the data were processed

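Total RNA of 3 mouse cell lines, 2 arrays each, was labelled and hybridized to 1 MouseRef-8 v2.0 BeadChip. In BeadStudio the authors averaged bead signals after local background correction and deposited linear, unnormalized intensity values. The deposited table gives a detection p-value beside each intensity. Groups and replicate numbers were taken from the sample labels.

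Each intensity column was divided by its median over all 25697 probes, and the members were chosen by order and fold on this scale. The members and gene lists were chosen with earlier results of these data known. All members are described, with other probes of their genes, the 5 probes on either side of the fold threshold, and up to 4 genes that passed the test for each list holding a member. For genes that are no members, the intensities were processed with neqc (offset 16) and fitted over all 6 arrays with lmFit and eBayes of limma 3.58.1 in R 4.3.3, with Benjamini-Hochberg adjustment over 2333 probes, those of detection p-value under 0.05 on the 2 arrays of any line. These p-values measure the spread between arrays only, which may be technical, and 2 arrays per line limit the precision of every value. All arrays shared 1 chip, so that the chip is no batch. The steps were tested on simulated intensities. Array names were matched to RefSeq, 13 by symbol and 3 by synonym, and motifs were counted in RefSeq promoters. The build behind the array design is not given in the sources used here, and no coordinates of probes are given. Same-numbered arrays of different lines had correlations of 0.0794, 0.0211 and 0.0317 in their deviations from the line means across probes, so that the numbers were not taken to pair the arrays. Alternatives were another scaling, background correction, fold threshold and detection filter, the replicate number as a block, and each array left out in turn.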

Additional observations from a re-analysis of the deposited data

How the results depend on the processing

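The number of stepwise falling probes was 16. It was also 16 with the 75th percentile as the divisor, 20 without scaling (12 of the 16 members among them), 12 with a detection p-value below 0.01 on all 6 arrays and 20 with detection asked of the EPC arrays alone. It moved to 89 on neqc signal (14 of the members among them), 3 at a 2-fold threshold and 28 with no fold threshold. With the median of the probes passing the detection criteria as the divisor, a setting chosen after seeing the data, it was 51, with 12 of the members among them. With each array left out it lay between 16 and 50, with 50 without EPC_acLDL replicate 1 and 42 without EPC replicate 2. With the order asked within each replicate number (replicate block) it was 29, all 16 members included. Each of the 16 members was lower in EPC_Late than in EPC with the 75th percentile, without scaling and on neqc signal, by -1.27 to -0.579 on the log2 scale without scaling and -2.48 to -0.997 on neqc signal. These are log2 ratios of the mean linear signals, and so differ slightly from differences of mean log2 signals. Because the members were selected on the same arrays for a higher EPC mean, their direction on these scales was largely given in advance.

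The limma calls were 77 between EPC_acLDL and EPC, 487 between EPC_Late and EPC_acLDL and 557 between EPC_Late and EPC. The first count was 163 with an offset of 50, 138 with a shift to the 75th percentile, 171 with the stricter detection filter, 50 without a filter and 43 with the replicate block, and 9 to 31 with each array left out. The 3 left-out ranges were thus 9 to 31, 197 to 442 and 356 to 454, and EPC_acLDL replicate 1 gave the lowest of the first 2, EPC_Late replicate 2 the lowest of the last. With the replicate block the other counts were 458 and 547. With the shift to the 75th percentile 114 probes were higher and 24 lower in EPC_acLDL than in EPC, against 45 and 32, and 131 higher and 371 lower in EPC_Late than in EPC_acLDL, against 218 and 269. The cause of these changes was not tested. Signal over background limits the values: Syncrip, Efna5, Kars and Map4k4 had a detection p-value above 0.01 on at least 1 EPC_Late array.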
